A study of Mus musculus with 8 samples.

Results

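The CCN family is a group of 6 secreted matricellular proteins, named in the array annotation by their older symbols Cyr61 (Ccn1), Ctgf (Ccn2), Nov (Ccn3), Wisp1 (Ccn4), Wisp2 (Ccn5) and Wisp3 (Ccn6). Members were taken as the gene probes whose gene name is one of these symbols. Of the 6 genes, 5 had a probe, with 1 probe each, among 41174 gene probes carrying 27745 gene names. Wisp3 was not analysed here, since 0 gene probes carried its name or its RefSeq accession. The question was how the transcripts of the family differed between mouse embryonic fibroblasts (MEFs) with and without Lats2, and whether its paralogs differed alike in each litter.

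RNA came from untreated Lats2-/- and Lats2+/+ MEFs, both labelled as strain C57BL/6J, in 3 litters numbered 112, 116 and 121. Each litter gave 1 named clone of each genotype, so that there were 6 extracts, and a difference within a litter is the difference between 2 cell preparations. The 2 extracts of a litter were hybridised together, 1 in Cy3 and 1 in Cy5, with 2 arrays in litters 112 and 116 and 4 in litter 121, and the dyes were swapped between arrays. The replicate is the litter (n = 3), and a ratio is always the log2 of Lats2-/- over Lats2+/+.

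CCN proteins are matrix-associated signalling proteins rather than structural fibres. They share an insulin-like growth factor binding-like module, a von Willebrand factor type C module and a thrombospondin type 1 module, and all but Wisp2 add a cysteine-knot module at the C-terminus. They bind integrins, heparan sulfate proteoglycans and LRP receptors, and they act in wound repair, fibrosis, cartilage and blood vessels. Ctgf and Cyr61 are textbook targets of YAP and TAZ, coactivators that the kinases LATS1 and LATS2 phosphorylate and keep out of the nucleus, and which bind DNA through TEAD factors. Both genes also respond to serum through SRF and to TGF-beta through SMAD factors, and these cells were grown in serum.

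The sequence before the Cyr61 start is shown because it is the member with a TEAD-type match in the promoter table used here, which held 2 of the 6 members (Cyr61 and Wisp3). These are the 250 bases before the RefSeq start on the minus strand, GRCm38.p6 chr3:145649986-145650235, 5′ to 3′, with the match in capitals.
Cyr61: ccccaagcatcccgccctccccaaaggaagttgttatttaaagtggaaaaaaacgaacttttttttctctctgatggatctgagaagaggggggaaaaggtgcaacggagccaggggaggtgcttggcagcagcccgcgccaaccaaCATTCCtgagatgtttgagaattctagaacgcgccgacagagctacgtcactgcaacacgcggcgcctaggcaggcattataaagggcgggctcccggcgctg
The capitals are GGAATG read on the opposite strand, 103 to 98 bases before the start. That motif was searched on both strands and occurred in 12.6% of 32841 promoter windows of the same length, so its presence is common. CAGAC (SMAD factors, in 42.2% of windows), TGANTCA (AP-1, 6.75%) and the CArG box bound by SRF (1.47%) had no match in this window. The arrays measured transcripts and not binding.

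Across the array 22642 probes were kept, a probe being kept where 1 genotype or both had it well above background in 2 or more of their 3 extracts, and the 5 CCN probes were among them. The targeted gene had 4 probes. The upstream Lats2 probe was lower in Lats2-/- in all 3 litters (-1.33, -1.05 and -0.56), while the 3 downstream probes lay between -0.70 and 1.17, below 0 in litters 112 and 116 and above 0 in litter 121. Arrays of the same litter correlated at 0.917 to 0.99 and arrays of different litters at -0.0192 to 0.15. All 8 fibroblast markers were kept, against 1 of 5 epithelial, 1 of 4 endothelial, 2 of 4 haematopoietic, 1 of 4 muscle, 4 of 5 cartilage and bone and 1 of the 2 neural markers with a probe (Tubb3), and Epcam, Pecam1, Ptprc and Myod1 were not among the kept probes. Of the other markers not kept, Cdh1 and Kdr were well above background in Lats2-/- of litter 121 alone, at log2 signals of 7.16 and 6.61, and Krt8 and Krt18 in Lats2+/+ of litter 116 alone, at 6.54 and 6.41. At limma's Benjamini-Hochberg adjusted threshold of 0.05, 0 of the 22642 probes (0%) were called, whereas 1549 (6.84%) had an unadjusted p under 0.05, of which 805 (3.56% of those tested) were higher and 744 (3.29%) lower in Lats2-/-. No CCN gene is therefore called at the adjusted threshold, and 2 of 5 had an unadjusted p under 0.05, both higher.

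Ctgf and Cyr61 were the members whose ratio was above 0 in all 3 litters, against 15% of kept probes. Wisp1 and Wisp2 differed in sign between litters, and Nov was below 0 in litters 112 and 116 and near 0 in litter 121, so that 0 of the 5 members were below 0 throughout, against 14.8% of kept probes. That count turns on litter 121, where Nov was at 0.01 and 3 of its 4 arrays were just below 0. With Feature Extraction's processed signals Nov was below 0 in each litter, at -0.81, -4.70 and -0.05, which makes it 1 of 5. In the Lats2-/- extract of litter 116 Nov was not well above background, so only the direction of the -4.70 holds.

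Ctgf, a profibrotic matrix-cell adaptor, had a log2 signal of 15.65, 13.32 and 16.89 in Lats2-/- MEFs of litters 112, 116 and 121, and of 14.10, 12.14 and 15.21 in their Lats2+/+ littermates. Within every litter the Lats2-/- extract was the brighter, yet the genotypes overlapped across litters, since the Lats2-/- extract of litter 116 was dimmer than the Lats2+/+ extracts of litters 112 and 121. The litter ratios were 1.55, 1.18 and 1.67, with a mean of 1.47 ± 0.26 (SD, n = 3), or 2.77-fold. The 95% moderated interval was 1.07 to 1.87, limma's p was 0.000624 before adjustment and 0.634 after it.
Ctgf was at least 2-fold higher in each litter, as were 48 kept probes (0.212%). Of all kept probes 117 had a mean ratio as high, and 5 had both a mean as high and an SD as low, Ctgf included. The SD of Ctgf was close to the median SD of 0.255 over all kept probes. The probe lies on the plus strand of chromosome 10, 24287891 to 24287950 in mm8.

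Cyr61, an angiogenic and adhesive member, showed log2 signals of 14.11, 12.63 and 14.67 in Lats2-/- and of 12.60, 11.95 and 12.80 in Lats2+/+, in the same order of litters. Again the Lats2-/- extract was the brighter of each pair, and litter 116 was the dimmest litter in both genotypes. The only crossing between genotypes was the Lats2-/- extract of litter 116, which lay below the Lats2+/+ extract of litter 121.
The litter ratios of Cyr61 were 1.51, 0.68 and 1.87, with a mean of 1.35 ± 0.61 (SD, n = 3), or 2.55-fold, and an interval of 0.58 to 2.12. In limma the unadjusted p was 0.00858, and after adjustment over all kept probes it was 0.711. Cyr61 was under 2-fold in litter 116, at 1.60-fold, and 149 kept probes had a mean ratio as high. Its probe lies on the minus strand of chromosome 3, 145584609 to 145584668 in mm8.

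**Figure D1:**
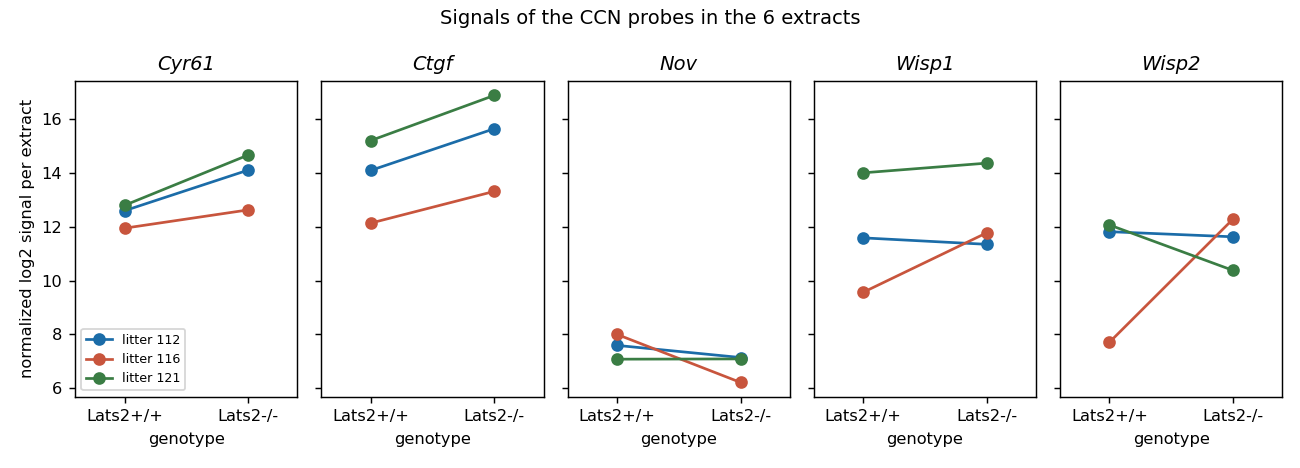
Normalized log2 signal (y axis) of the 5 CCN probes in Lats2+/+ and Lats2-/- extracts (x axis), 1 panel per gene and 1 line per litter. The lines of Ctgf and Cyr61 slope upwards in all 3 litters while the litters stay apart, and in Wisp2 the Lats2+/+ extract of litter 116 lies at 7.71 against 11.82 and 12.07 in the other litters.

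For Ctgf the litters were farther apart than the genotypes. Its signal spanned 3.57 log2 units between the Lats2-/- extracts and 3.08 between the Lats2+/+ extracts, against a mean ratio of 1.47. The order was litter 121, then 112, then 116 in both genotypes. Litter 121 was hybridised on a second slide, so that litter and slide cannot be told apart for that litter, whereas litters 112 and 116 shared a slide. The comparison therefore rests on the pairing: with the extracts treated as unpaired, limma's unadjusted p for Ctgf was 0.238. For Cyr61 the signals spanned 2.04 in Lats2-/- and 0.84 in Lats2+/+, and the unpaired p was 0.0475.

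The genotype ratio of both genes lay on the same side with either dye. Cyr61 ratios on single arrays lay between 0.61 and 1.90, and Ctgf ratios between 1.14 and 2.01. In litter 121 Ctgf gave 2.0 with Lats2-/- in Cy5 and 1.35 with Lats2-/- in Cy3, that is 0.32 to either side of their mean. That was the largest of 15 such values over 5 genes and 3 litters, whose median was 0.04. The Ctgf spots of litter 121 were bright, with mean intensities of up to 183900 for Lats2-/- in Cy5, and no gene spot was marked saturated.

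Arrays can also be read as 8 correlated observations. With the slide as a random block, which treats arrays of 1 litter on a slide as no more alike than arrays of 2 litters, Ctgf had an adjusted p of 0.004 and Cyr61 of 0.0129 in limma. With the litter as a random block the values were 0.0582 for Ctgf and 0.0073 for Cyr61. These fits change the call for both genes or for Cyr61, and they take their spread partly from arrays of the same extracts.

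**Figure D2:**
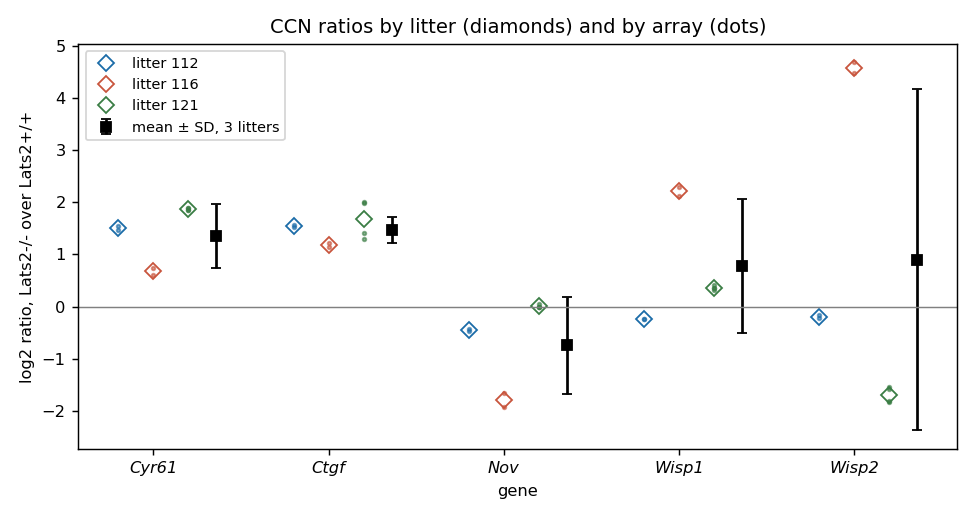
Log2 ratio of Lats2-/- over Lats2+/+ (y axis) of each CCN gene (x axis), with dots for single arrays, diamonds for litter means and squares with bars for the mean ± SD of the 3 litters. The Ctgf arrays of litter 121 spread from 1.29 to 2.01, and the bar is shortest for Ctgf (0.26) and longest for Wisp2 (3.27).

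Nov is a member known for restraining growth and for opposing Ctgf in some settings. Its log2 signals were 7.14, 6.21 and 7.09 in Lats2-/- and 7.59, 8.0 and 7.08 in Lats2+/+. The extracts of litter 121 were alike, and the Lats2+/+ extract of litter 116 was the brightest of the 6.
In litter 116 Nov was not well above background on either of the 2 Lats2-/- arrays, where the spots measured 52.3 and 45.5 against 176 and 320 in Lats2+/+. Only a bound holds there: Nov was at least 3.35-fold higher in Lats2+/+. The ratios as computed were -0.45, -1.79 and 0.01, with a mean of -0.74 ± 0.93 (SD, n = 3) and an interval of -1.88 to 0.39. Limma's adjusted p was 0.754.
The mean of Nov moved with the processing. Lowering the constant added to signals after background correction from 50 to 16 gave -1.05, and a mean of -1.85 came from Feature Extraction's processed signals, which differ in background correction and normalization together, and without litter 116 the mean was -0.22. The probe lies on the plus strand of chromosome 15, 54582732 to 54582791 in mm8.

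Wisp1, a Wnt-inducible member expressed in osteogenic and remodelling mesenchyme, had log2 signals of 11.35, 11.78 and 14.37 in Lats2-/- and of 11.59, 9.57 and 14.01 in Lats2+/+. Litter 121 was the brightest litter in both genotypes, and the lowest value was the Lats2+/+ extract of litter 116. The ratios were -0.24, 2.21 and 0.37, with a mean of 0.78 ± 1.27 (SD, n = 3), and limma's adjusted p was 0.783. Without litter 116 the mean was 0.06. The probe lies on chromosome 15 as well, on the plus strand from 66752744 to 66752803 in mm8.

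Wisp2 lacks the C-terminal cysteine-knot module and is expressed in mesenchymal and vascular cells. Its log2 signals were 11.63, 12.29 and 10.38 in Lats2-/- and 11.82, 7.71 and 12.07 in Lats2+/+. One extract stood apart, the Lats2+/+ extract of litter 116, and 5 of the 6 extracts lay within 10.38 to 12.29.
The ratios were -0.19, 4.58 and -1.69, that is 23.9-fold higher in Lats2-/- in litter 116 and lower in the other two. Both arrays of litter 116 showed it, at 4.47 and 4.68, with spot intensities of 136 and 274 in Lats2+/+ against 6642 and 3286 in Lats2-/-. All 4 arrays of litter 121 lay between -1.83 and -1.54. The mean of 0.90 ± 3.27 (SD, n = 3) had an interval of -2.97 to 4.77 and a limma adjusted p of 0.909, and without litter 116 it turned to -0.94. Only 35 kept probes (0.155%) had an SD between litters as large as Wisp2. The probe lies on the plus strand of chromosome 2, 163524422 to 163524481 in mm8.

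**Figure D3:**
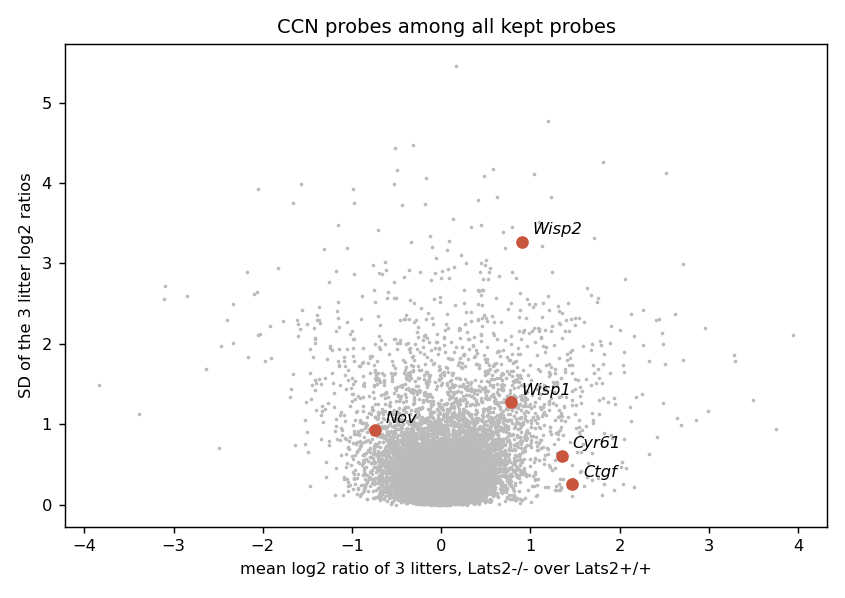
Mean log2 ratio of the 3 litters (x axis) against their SD (y axis) for the 22642 kept probes (grey), with the 5 CCN probes marked. Ctgf and Cyr61 lie to the right, at SDs of 0.26 and 0.61 against a median of 0.255 over all kept probes, and Wisp2 lies at an SD of 3.27.

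The fibroblast markers also differed between the extracts of litters 116 and 121, for the most part in the direction of Wisp2. In litter 116, 7 of 8 had a ratio above 0 with a median of 1.95, and in litter 121, 1 of 8 had, with a median of -0.93. The median over all kept probes was 0.00074 in litter 116 and -0.0015 in litter 121. Litter 112 had 5 of 8 markers above 0 with a median of 0.10, while Wisp2 (-0.19) and Wisp1 (-0.24) lay below 0 there. The log2 of the summed linear signals of the 8 markers lay between 17.70 and 18.74 in Lats2-/- and between 17.51 and 18.61 in Lats2+/+. The brightest markers weigh most in that sum. Pdgfra, a growth factor receptor, had ratios of 0.90, 0.13 and -4.96, the last resting on a Lats2-/- signal of 6.30 that was well above background on 2 of the 4 arrays. The markers named here were chosen after their values were seen. Type III collagen Col3a1 had ratios of 0.13, 3.70 and -3.42, the surface glycoprotein Thy1 of -0.38, 2.05 and -3.66, and type I collagen Col1a1 of -0.50, 2.75 and -1.14. Vimentin (Vim) went the other way in litter 116, at -1.19. Of 5 cartilage and bone markers 4 were kept. The log2 of their summed linear signals was 10.93 to 11.27 in Lats2-/- and 9.80 to 11.88 in Lats2+/+. Their median ratios were 0.14, 0.71 and -0.20, with 2, 3 and 2 of the 4 above 0. Col2a1 had ratios of 0.29, 2.53 and -0.40, Sox9 of 0.71, 1.41 and -3.71 and Bglap1 of -0.05, 0.0051 and 1.16, while Acan lay between -0.02 and 0.01. The part of such differences between cell preparations in the Wisp1, Wisp2 and Nov values was not tested. In bulk RNA, fewer cells of a type and less RNA per cell cannot be told apart.

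**Figure D4:**
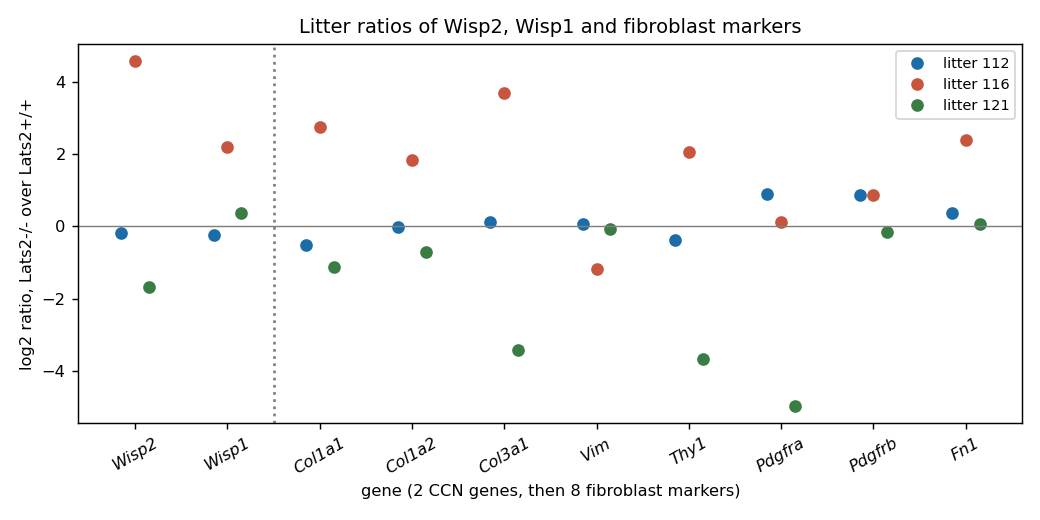
Litter log2 ratios of Lats2-/- over Lats2+/+ (y axis) for Wisp2, Wisp1 and the 8 fibroblast markers (x axis), 1 colour per litter. Litter 116 lies above 0 for both CCN genes and for 7 of the 8 markers, and litter 121 lies below 0 for Wisp2 (-1.69) and 7 of the 8 markers. Litter 112 lies below 0 for both CCN genes and above 0 for 5 of the 8 markers.

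The paralogs were compared through the difference of their ratios within each litter, over the 10 pairs of 5 genes. With 3 litters the exact two-sided sign-flip permutation test cannot go below p = 0.25, so that no pair could pass 0.05. Cyr61 minus Ctgf was -0.04, -0.50 and 0.20, with a mean of -0.12 ± 0.36 (SD). The pair thus differed by at most 0.50 log2 units in any litter, and its exact p was 0.75 (0.938 adjusted over the 10 pairs).
Ctgf exceeded Nov by 2.0, 2.97 and 1.66, with a mean of 2.21 ± 0.68 (SD), and Cyr61 exceeded Nov by 1.96, 2.47 and 1.86, with a mean of 2.10 ± 0.32 (SD). Nov minus Wisp1 was below 0 in all 3 litters too, at -0.21, -4.00 and -0.36. These 3 pairs had 1 sign in all litters and the smallest exact p of 0.25 (0.833 adjusted), and the litter 116 value of each, and so the mean, rests on a Nov signal that was not well above background. With Feature Extraction's processed signals the means were 3.43 for Ctgf minus Nov and 3.23 for Cyr61 minus Nov.
In the other 7 pairs the sign changed between litters. Ctgf exceeded Wisp1 by 1.79 and 1.31 and Wisp2 by 1.74 and 3.36 in litters 112 and 121, but in litter 116 it was below them by -1.03 and -3.40. Wisp1 minus Wisp2 was -0.05, -2.37 and 2.05.

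Over all 6 extracts the signals of Ctgf and Cyr61 correlated at r = 0.92, the highest of the 10 pairs, and Nov and Wisp2 at r = -0.71, the lowest. These are descriptions over 6 points that share litters, arrays and slides. Every value for Nov, its matches included, uses the Lats2-/- extract of litter 116, where Nov was not well above background. By the same measure, among 4134 kept probes with an SD of at least 0.5 over the extracts, the probes of other genes most like Ctgf were those of Nxn (0.992), Nek6 (0.989) and AK034548 (0.982). Nxn had ratios of 0.71, 0.76 and 0.67, Nek6 of 0.66, 0.65 and 0.63, and AK034548 of 1.09, 0.52 and 0.64. The closest to Cyr61 were Eya1 (0.996), Speer3 (0.980) and Myo5b (0.977). Their ratios were 0.68, 0.44 and 0.92 for Eya1, 1.69, 1.1 and 1.92 for Speer3, and 1.79, 0.09 and 2.51 for Myo5b.
Nov was matched by Rras2 (0.968), Smarca2 (0.964) and Taf9 (0.941). Wisp1 was matched by Gtf3c1 (0.996), Pdia4 (0.994) and Thbs1 (0.994), the last a matricellular protein too, whose ratios in litter 116 were 0.57, 0.70 and 2.44. Wisp2 was matched by Gramd3 (0.982), Tmem159 (0.974) and Gm22 (0.973), whose ratios in litter 116 were 1.42, 1.66 and 2.44.

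The receptors and coreceptors of CCN proteins were measured by 11 kept genes of 12. In 7 of them the mean ratio was above 0 and in 4 below, none had an unadjusted p under 0.05, and the median was 0.19, against 0.0058 over all kept probes. By litter the list had medians of -0.08, 0.80 and -0.08, so that litter 116 alone lay above 0. Lrp1, an endocytic receptor of Ctgf, had ratios of 0.15, 1.27 and 0.31 and the lowest unadjusted p of the list (0.104). Integrin alpha 6 (Itga6), which pairs with beta 1 as a Cyr61 receptor, had -0.46, -2.43 and -0.17 (0.125), and integrin beta 1 (Itgb1) -0.41, 0.90 and 0.44 (0.352). Their adjusted p in limma lay between 0.729 and 0.837.

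Of 19 factors upstream of the family, which are Hippo, TEAD, SRF and TGF-beta genes, 18 were kept. The mean ratio was above 0 in 14 and below 0 in 4, with a median of 0.16. Lats2 itself counts among the 14 through its brightest probe, a downstream one at 0.07, whereas the upstream Lats2 probe had a mean of -0.98. For comparison, 11615 of the 22642 kept probes had a mean above 0 and their median was 0.0058. Of the 18, 3 had an unadjusted p under 0.05, all higher, against 3.56% of kept probes. None passed the adjusted threshold. The TGF-beta receptor Tgfbr2 had ratios of 0.95, 0.89 and 0.59, with a mean of 0.81 ± 0.19 (SD) and an unadjusted p of 0.00335. Smad2, which carries the signal of that receptor, had 0.37, 0.60 and 0.29 (0.0242), and Srf, the serum response factor, had 0.44, 0.73 and 0.19 (0.0382). All 3 had an adjusted p of 0.711 in limma.

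Of 7 extracellular partners 6 had a probe and 5 were kept, 4 with a mean ratio above 0 and 1 below, and none at an unadjusted p under 0.05. The median of their mean ratios was 0.94, the value of Fn1, against 0.0058 over all kept probes, while the medians by litter were 0.81, 0.33 and 0.07. Vegfa, a growth factor that Ctgf binds, had ratios of 0.81, 0.33 and 0.07 (0.0937). Bmp4, a ligand that Ctgf also binds, had 2.64, -0.76 and 2.52 (0.147), and fibronectin (Fn1), a matrix partner, had 0.36, 2.40 and 0.07 (0.157).

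**Figure D5:**
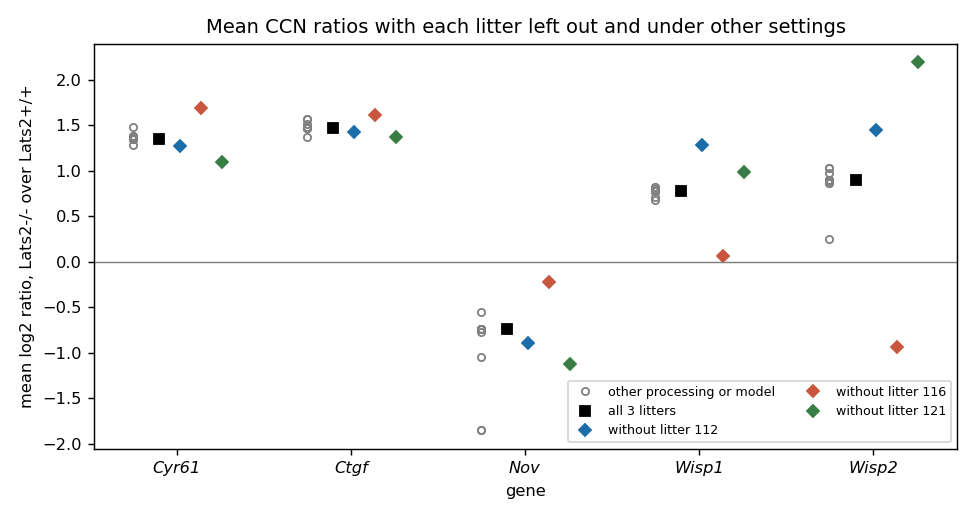
Mean log2 ratio of Lats2-/- over Lats2+/+ (y axis) of each CCN gene (x axis) for all 3 litters (squares), with 1 litter left out (diamonds) and under the other processing settings and models (open circles). Ctgf stays between 1.37 and 1.61 and Cyr61 between 1.09 and 1.69, Nov and Wisp1 move to -0.22 and 0.06 without litter 116, and Wisp2 turns to -0.94 without it.

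In none of the 5 genes did the Lats2-/- signals all lie above the Lats2+/+ signals, as they did for 3.09% of kept probes, or all below, as for 3.04%. A further probe near the Ctgf locus, for the transcript AK014660, lies on the minus strand of chromosome 10 (24279016 to 24279075 in mm8). It was well above background on none of the 8 arrays in either genotype, so it was not kept or tested. Its litter ratios of 0.05, -0.14 and -0.05 were read at background.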

How the data were processed

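Members and lists were chosen with earlier results of these data known. The authors scanned 8 arrays of design 14868 and deposited scanner files with linear intensity per spot and log10 ratios (Feature Extraction 10.7.3.1 per the file headers, 10.5.1.1 in the submitters' processing notes), and a table of log10 ratios already turned to Lats2-/- over Lats2+/+. Here mean intensities were background corrected (normexp, offset 50, limma 3.58.1, R 4.3.3), control and outlier spots left out, loess applied within arrays, and arrays averaged per litter. Signals per extract followed Aquantile. The 3 litter ratios were tested against 0 with limma, adjusted over 22642 kept probes. Precision is limited by the number of arrays and litters, and p-values measure the spread between clones of 3 litters. Every CCN probe is named, and from the lists of receptors, upstream factors and extracellular partners the 3 genes with the lowest unadjusted p, at the probe with the highest mean signal. The fit was also run on simulated litter ratios with known changes, which is a check of the code and not of the results above. Where a CCN gene was not well above background on any array of an extract, a bound against the lowest signal well above background is given. Means, intervals and tests used the ratio as computed. Alternatives covered background, scaling, filters, the methods' t-test, blocks, and each litter left out.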

Additional observations from a re-analysis of the deposited data

Results flagged for a closer look

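Of 10 sets of arrays examined for an array far from the others (5 genes, over all 8 arrays and over the 4 arrays of litter 121), 1 stood out, where chance gives about 1 in 20. The log2 ratio of Nov was 0.0595 on 1 array of litter 121, against -0.0085 to -0.0049 on the other 3. All 4 values are close to 0.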

How the results depend on the processing

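With 1 litter left out, the mean log2 ratio was 1.09 to 1.69 for Cyr61, 1.37 to 1.61 for Ctgf, -1.12 to -0.22 for Nov, 0.06 to 1.29 for Wisp1 and -0.94 to 2.19 for Wisp2. The differences that changed sign were -0.27 to 0.0773 for Cyr61 minus Ctgf, -0.0137 to 1.63 for Cyr61 minus Wisp1, -1.10 to 2.63 for Cyr61 minus Wisp2, -0.83 to 2.55 for Ctgf minus Wisp2, -3.31 to 0.72 for Nov minus Wisp2 and -1.21 to 1.0 for Wisp1 minus Wisp2. The other 4 pairs kept their sign, at 1.91 to 2.21 for Cyr61 minus Nov, 1.83 to 2.49 for Ctgf minus Nov, 0.14 to 1.55 for Ctgf minus Wisp1 and -2.18 to -0.28 for Nov minus Wisp1, the last at -0.28 without litter 116. Leaving out litter 121 leaves the slide of litters 112 and 116. Ctgf and Cyr61 were above 0 under all 15 alternatives, and Nov, which the strict filter on dim probes drops, was below 0 under its 14. Many of these could not change a sign. The filters, the t-test and the fit with no replicate block leave the mean as it was. Every litter and array ratio of Ctgf and Cyr61 was above 0, so leaving out a litter or adding a block could not turn them. The mean of Wisp2 was 0.25 with the slide as a random block.

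The random-block fits raised the counts of probes called. Adjusted calls came to 341 with the litter, 717 with the slide and 202 with the litter and a dye term, against 0 otherwise, and probes at an unadjusted p under 0.05 to 2999, 4029 and 2852. In these fits Cyr61 passed with means of 1.36, 1.48 and 1.36, and Ctgf with the slide, at 1.52, but not with the litter and dye term, at an adjusted p of 0.138. The counts at an unadjusted p were 2623 with no filter, where more probes are tested, and 554 with no replicate block, where the pairing is dropped. By the methods' t-test on litters 1347 probes were under 0.05, with p of 0.00998 for Ctgf and 0.062 for Cyr61. The cause of other changes was not tested.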
